A study of Brassica napus with 2 samples.

Results

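The genes described here are the *Brassica napus* orthologs of *IAA19*, *IAA5* and *IAA6* of *Arabidopsis*, a set that belongs to subgroup A3 of the *Aux/IAA* family tree except for *BnaC08.IAA.4*, which was not placed in the tree. The rule takes the listed ortholog and no expression value, although the set was picked for description with results of these data known. It takes the *Aux/IAA* genes assigned to AT3G15540 (*IAA19*), AT1G15580 (*IAA5*) or AT1G52830 (*IAA6*). This gave 10 of the 119 *Aux/IAA* genes of *B. napus*, of which 5 were orthologs of *IAA19*, 2 of *IAA5* and 3 of *IAA6*. Values were found for 7 members, namely all 5 orthologs of *IAA19*, *BnaA09R.IAA.1* for *IAA5* and *BnaA06R.IAA.1* for *IAA6*. The other 3 members, *BnaC08.IAA.4*, *BnaA06.IAA.1* and *BnaC06.IAA.2*, were not analysed here. *B. napus* carries an A subgenome (An) and a C subgenome (Cn) from its diploid parents, and the matching copies on both are called homeologs.

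RNA was sequenced from 30-day-old seedlings kept for 3 h in liquid MS medium with 1 μM indole-3-acetic acid (IAA), a natural auxin, or without it, the latter given as ddH20 in the sample labels. Each condition was 1 pool of 10 seedlings and 1 library, so that no difference below has a replicate check and none was tested across samples. All seedlings were raised on MS agar under the same light cycle. Levels are in FPKM, mapped fragments scaled to transcript length and to the size of the library, which allows levels to be compared between genes of unequal length. The table held 63193 genes, and 93 of the 119 *Aux/IAA* genes were among them.

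Aux/IAA proteins are short-lived repressors of auxin signaling. They bind auxin response factors on the promoters of auxin-responsive genes and recruit TOPLESS corepressors, and auxin triggers their ubiquitination by the SCF complex with TIR1/AFB receptors and their degradation. Many *Aux/IAA* genes are themselves early auxin-inducible genes, which closes a negative feedback loop. In *Arabidopsis*, *IAA19* is also known as *MSG2*, and its dominant mutants are impaired in hypocotyl phototropism and gravitropism and in lateral root formation. *IAA6* is also known as *SHY1*, and *IAA5*, *IAA6* and *IAA19* together are required for normal drought tolerance in that species.

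The FPKM values kept a trace of the sequencing depth, since values of weakly expressed genes are multiples of what 1 fragment adds. Weakly expressed *Aux/IAA* genes gave whole fragments at a depth of 23600000 fragments for the control and 18300000 for the IAA library, with fragments of 195 bp on average. The ratio of these depths, 1.29, equalled the ratio found most often among 5083 genes whose values in both libraries were above 0 but below 0.3 FPKM. At these depths the control values of *BnaA03.IAA.2*, *BnaC01.IAA.6*, *BnaC03.IAA.2* and *BnaCX.IAA.8* came out at 27.00, 43.01, 75.02 and 40.07 fragments, each within 0.1 of a whole number. None of these 4 values had been used to choose the depth. With IAA the same genes came out at 387.56, 164.13, 637.31 and 185.43 fragments, none within 0.1 of a whole number, so that the fit to whole fragments was not seen at these higher values. Intervals below were computed from such estimated fragments at 95%, and they cover counting error only, not the difference between pools of seedlings.

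All 5 orthologs of *IAA19* were at least 4-fold higher in the IAA library, beside 724 of all 63193 genes after 0.1 FPKM was added to both values. *BnaA03.IAA.2* (BnaA03g33930D) lies on chromosome A03 from 16433475 to 16434855 of the Darmor-*bzh* genome v4.2 and has 3 exons. Its level was 1.77 FPKM in the control library (exact Poisson interval from 1.17 to 2.58) and 32.8 FPKM in the IAA library (interval from 29.6 to 36.3). This was an 18.5-fold ratio, with an exact binomial interval from 12.5 to 28.5, and the largest ratio among the members above 0 FPKM in both libraries. In bulk seedlings, more cells that express a gene and more RNA per cell cannot be told apart.

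Its homeolog *BnaC03.IAA.2* (BnaC03g39170D), on chromosome C03 from 24167655 to 24169149 with 3 exons, was the most highly expressed member with IAA. Its level was 4.02 FPKM without IAA (interval from 3.16 to 5.04) and 44.1 FPKM with it (interval from 40.7 to 47.6). The ratio was 11.0-fold, with an interval from 8.61 to 14.1. Within the measured *Aux/IAA* family this moved the gene from rank 52 to rank 23 by FPKM, and *BnaA03.IAA.2* from rank 63 to rank 28.

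The second homeologous pair of *IAA19* was far from even in level. *BnaC01.IAA.6* (BnaC01g36030D), on chromosome C01 from 35307484 to 35308841 with 3 exons, had 2.90 FPKM without IAA (interval from 2.10 to 3.90) and 14.3 FPKM with it (interval from 12.2 to 16.6). Its ratio was 4.92-fold (interval from 3.50 to 7.05), the lowest of the *IAA19* orthologs. *BnaA01.IAA.7* (BnaA01g28670D), on chromosome A01 from 19924495 to 19925747 with 3 exons, stood at only 0.172 FPKM in the control and 1.78 FPKM with IAA, which correspond to 2 and 16 estimated fragments. Its ratio of 10.4-fold therefore had a wide interval, from 2.43 to 92.5. The direction of the difference was thus outside counting error for this copy, but its size was poorly fixed at this depth.

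*BnaCX.IAA.8* (BnaCnng74250D) is the fifth ortholog of *IAA19*, lies on unplaced C sequence (Cnn) from 75085661 to 75086834, and has 2 exons, where the other orthologs of *IAA19* have 3. No An homeolog is listed for it. Its control level, 4.15 FPKM (interval from 2.96 to 5.64), was the highest of the members, and with IAA the level was 24.8 FPKM (interval from 21.3 to 28.5). The ratio was 5.97-fold, with an interval from 4.22 to 8.62.

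**Figure D1:**
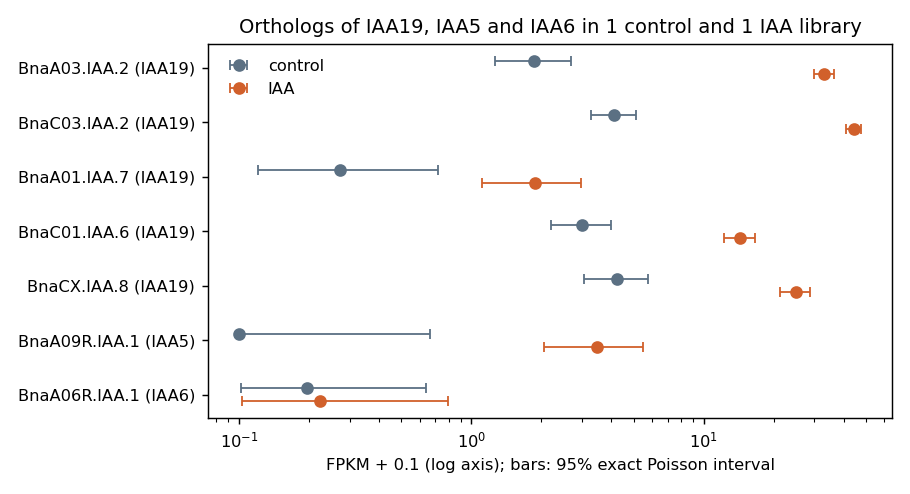
Level of the 7 measured members in the control library and the IAA library, as FPKM + 0.1 on a log axis, with exact Poisson intervals of the estimated fragments. The levels of the 5 orthologs of *IAA19* and of *BnaA09R.IAA.1* lie apart in the 2 libraries, whereas the intervals of *BnaA06R.IAA.1* overlap almost wholly.

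The order of the *IAA19* orthologs by level differed between the libraries. In the control it ran *BnaCX.IAA.8*, *BnaC03.IAA.2*, *BnaC01.IAA.6*, *BnaA03.IAA.2* and *BnaA01.IAA.7*. Each overlapped the next in its Poisson interval except *BnaA03.IAA.2*, which did not overlap *BnaA01.IAA.7* at 0.0208 to 0.621 FPKM. The interval of *BnaA03.IAA.2*, from 1.17 to 2.58 FPKM, also lay below those of *BnaCX.IAA.8* and *BnaC03.IAA.2*. With IAA the order was *BnaC03.IAA.2*, *BnaA03.IAA.2*, *BnaCX.IAA.8*, *BnaC01.IAA.6* and *BnaA01.IAA.7*. No neighbours in that order overlapped.

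*IAA5* was represented by *BnaA09R.IAA.1* (BnaA09g56620D), which lies on the unplaced sequence of chromosome A09 from 3812197 to 3812920 and has 4 exons. Its listed value was 0 FPKM without IAA and 3.37 FPKM (interval from 1.96 to 5.39), or 17 estimated fragments, with it. A floor of 3 fragments was 0.461 FPKM in the control, and the IAA level was 7.32-fold above it. By its exact Poisson interval, the control count of 0 allows up to 0.566 FPKM. The exact binomial interval, which also holds the counting error of the IAA library, began at 5.32-fold. Its listed Cn homeolog, *BnaC08.IAA.4*, was among the members not analysed here. Because only low counts identify this gene here, the qRT-PCR primers designed for it are shown, copied from the oligo list of the study and printed 5′ to 3′. Whether they measure it apart from its homeolog or other copies was not tested here. Each primer is 22 nt long and holds 11 G or C bases.
BnaA09R.IAA.1 forward: gcacatgaaatcaccgagctac
BnaA09R.IAA.1 reverse: cttcgaggctgttctttctcct

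*IAA6* was represented by *BnaA06R.IAA.1* (BnaA06g37420D), on the unplaced sequence of chromosome A06 from 3799 to 4883 with 4 exons. It stood at 0.0960 FPKM in the control and 0.125 FPKM with IAA, which is 1 estimated fragment in each library. At this depth no difference could be detected, since the interval of the log2 ratio ran from -5.93 to 6.66. Both levels lay below the floor of 3 fragments, and no fold is given.

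**Figure D2:**
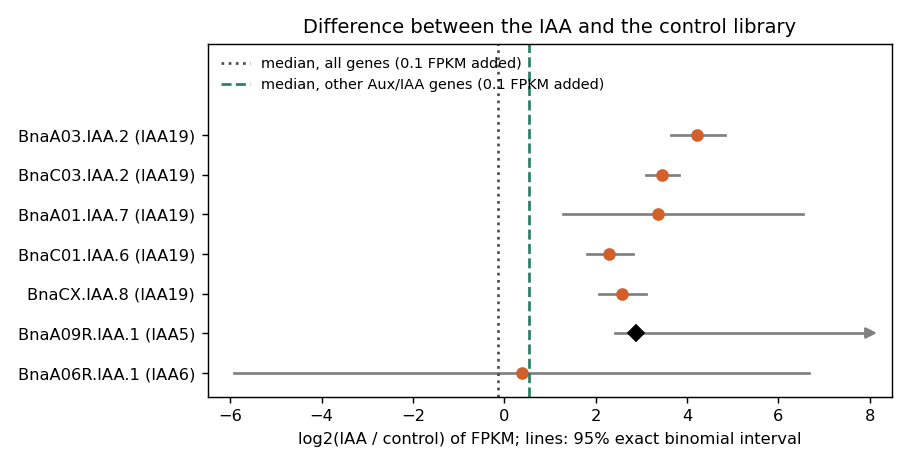
Difference between the libraries for each measured member, as the log2 ratio of IAA to control FPKM (points), with exact binomial intervals (lines). The diamond is the log2 ratio of *BnaA09R.IAA.1* against 3 fragments in the control, and the interval of this gene has no upper end. The intervals of 6 members lie above the medians of all genes (-0.13) and of the other *Aux/IAA* genes (0.54), which are drawn after 0.1 FPKM was added.

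To compare the members with other genes, including those at 0 FPKM, log2 fold changes were calculated after 0.1 FPKM was added to both values. On that scale 6 of the 7 measured members passed a 2-fold increase with IAA and 0 a 2-fold decrease. The same 6 passed a 4-fold threshold, beside 724 of all 63193 genes. The counting intervals of *BnaA01.IAA.7* and *BnaC01.IAA.6* began below 4-fold, at 2.43 and 3.50. Over all 63193 genes, the 2-fold increase was passed by 4.22% and the 2-fold decrease by 8.68%. Over the 43979 genes that reached 1 FPKM with or without IAA, 2.51% passed the increase. The members are not counted on that filter, because *BnaA01.IAA.7* and *BnaA09R.IAA.1* pass it through the IAA library alone and *BnaA06R.IAA.1* is removed by it. The median log2 fold change of the members was 2.79, beside -0.13 for all genes. With *BnaA06R.IAA.1* left out, and *BnaA09R.IAA.1* and *BnaA01.IAA.7* set to their ratios against 3 control fragments, the median over 6 members was 2.83. Of 28094 genes whose control FPKM lay within the range of the *IAA19* orthologs, 3.21% were at least 2-fold higher, and their median was -0.24.

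The individual log2 fold changes on this scale were 4.14 for *BnaA03.IAA.2*, 3.42 for *BnaC03.IAA.2*, 2.79 for *BnaA01.IAA.7*, 2.55 for *BnaCX.IAA.8* and 2.26 for *BnaC01.IAA.6*. They placed the *IAA19* orthologs at ranks 3, 7, 12, 14 and 16 of the 93 measured *Aux/IAA* genes. *BnaA09R.IAA.1* had rank 1, at a value set by the added 0.1 FPKM, and *BnaA06R.IAA.1* rank 63. Over the whole table, 100 genes had a larger log2 fold change than *BnaA03.IAA.2* and 556 a larger one than *BnaC01.IAA.6*.

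Summed over the 5 orthologs of *IAA19*, the level was 13.0 FPKM in the control and 118 FPKM with IAA, a 9.04-fold ratio. *BnaC03.IAA.2* made up 38.3% and *BnaA03.IAA.2* 29.6% of this difference. *BnaCX.IAA.8* added 19.7%, *BnaC01.IAA.6* 10.9% and *BnaA01.IAA.7* 1.54%. The pair on A03 and C03 thus accounted for most of the additional *IAA19* transcript.

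The makeup of the *IAA19* transcripts differed between the libraries. The share of *BnaA03.IAA.2* was 13.6% in the control and 27.9% with IAA, and that of *BnaC03.IAA.2* was 30.9% and 37.5%. In the other direction, *BnaCX.IAA.8* made up 31.9% in the control and 21.1% with IAA, and *BnaC01.IAA.6* 22.3% and 12.1%. *BnaA01.IAA.7* stayed a minor copy at 1.32% and 1.51%. The 2 An copies together made up 14.9% in the control and 29.4% with IAA, and the Cn copies were the larger part in both libraries.

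**Figure D3:**
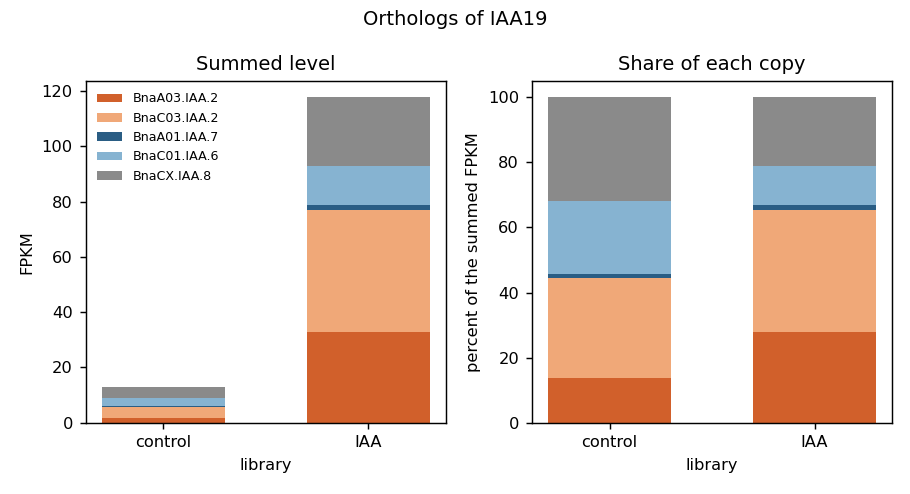
Orthologs of *IAA19* stacked by copy in each library, as summed FPKM (left) and as percent of the sum (right). The sum is 13.0 FPKM in the control and 118 FPKM with IAA, and the A03 copy takes 13.6% and 27.9% of it.

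Within the homeologous pair on A03 and C03, *BnaA03.IAA.2* made up 30.6% of the pair in the control (exact binomial interval from 21.4% to 40.9%) and 42.7% with IAA (interval from 39.6% to 45.8%). The Cn copy was the more highly expressed in both libraries, by 2.27-fold in the control and 1.34-fold with IAA. In the pair on A01 and C01, *BnaA01.IAA.7* made up 5.60% in the control (interval from 0.692% to 18.6%) and 11.1% with IAA (interval from 6.50% to 17.2%), so that a change of share was not detectable. *BnaC01.IAA.6* exceeded its An homeolog 16.9-fold in the control and 8.00-fold with IAA.

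Whether copies differed in their fold was examined for all 10 pairs of *IAA19* orthologs, with conditional exact intervals of the ratio of both folds, in which gene length and depth cancel. Of these intervals 5 excluded equal folds at 95% each, and 3 did so at 99.5%, the level that allows for 10 pairs. The latter were *BnaA03.IAA.2* against *BnaC01.IAA.6* (log2 ratio of the folds 1.91, 95% interval from 1.13 to 2.71), *BnaA03.IAA.2* against *BnaCX.IAA.8* (1.63, from 0.84 to 2.44) and *BnaC01.IAA.6* against *BnaC03.IAA.2* (-1.15, from -1.77 to -0.52). *BnaC03.IAA.2* against *BnaCX.IAA.8* (0.88, with a lower end of 0.23) excluded equal folds at 95% only. Both copies of the A03 and C03 pair therefore had a larger fold than *BnaC01.IAA.6* in these libraries.

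Homeologs were not set apart from the other pairs by the size of this ratio. *BnaA03.IAA.2* against *BnaC03.IAA.2* gave a log2 ratio of 0.76, with a 95% interval from 0.08 to 1.48 that excluded equal folds only without the allowance for 10 pairs. *BnaA01.IAA.7* against *BnaC01.IAA.6* gave 1.06, with an interval from -1.11 to 4.28 that leaves room for a difference of either sign. *BnaC01.IAA.6* and *BnaCX.IAA.8* gave -0.28, with an interval from -1.01 to 0.45. Reads that match more than 1 copy may have been split among copies by the quantification, and the part of this in the shares was not tested.

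**Figure D4:**
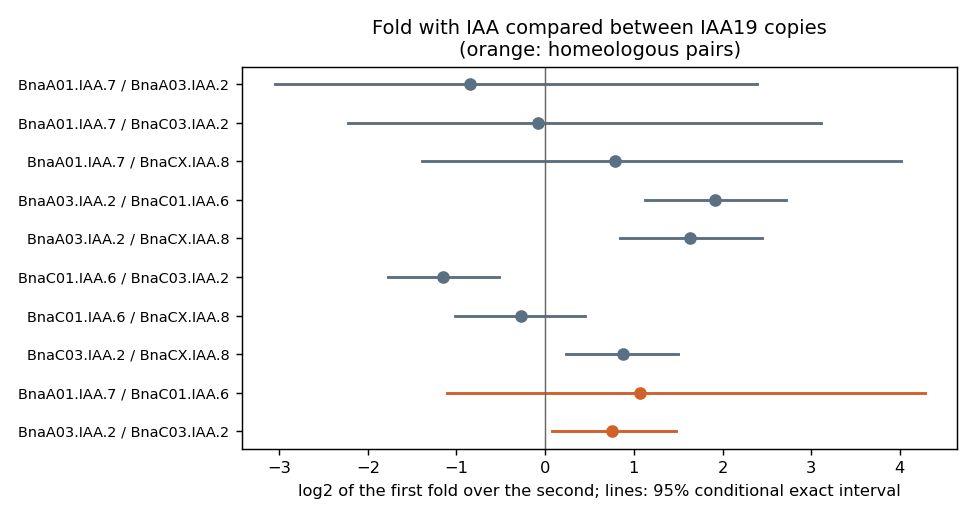
Ratio of the folds of 2 orthologs of *IAA19*, as log2 of the fold of the gene named first over that of the gene named second (points), with 95% conditional exact intervals (lines) for all 10 pairs; homeologous pairs are in orange. Intervals of 5 pairs lie off 0, and all 4 pairs with *BnaA01.IAA.7*, which had 2 control fragments, have wide intervals.

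Of the 86 other measured *Aux/IAA* genes, 33 (38.4%) passed the 2-fold increase with IAA and 1 the decrease, and the median log2 fold change was 0.54. The lower gene, named after its value had been seen, was *BnaA04.IAA.1*, an ortholog of *IAA8*, at 2.61 FPKM without IAA and 1.06 FPKM with it. A 4-fold threshold was passed by 13 of these 86 genes. The members were also expressed at lower levels in the control, with a median of 1.77 FPKM beside 7.03 FPKM for the other *Aux/IAA* genes, and none above 4.15 FPKM, beside 139 FPKM in *BnaC05.IAA.7*. With IAA the medians were 14.3 FPKM and 10.2 FPKM. *BnaC05.IAA.7*, an ortholog of *IAA2* on chromosome C05, had the highest level of the family in both libraries, and its log2 fold change was 1.26.

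The 3 ortholog sets of other auxin-inducible family members lay on both sides of the *IAA19* orthologs. All 8 orthologs of *IAA1* and *IAA2* passed the 2-fold increase and 0 passed 4-fold, with log2 fold changes from 1.25 to 1.68 and a median of 1.43. Their control levels, from 0.884 to 139 FPKM, had a median of 54.7 FPKM. Of the 5 measured orthologs of *IAA3* (*SHY2*) and *IAA4*, 3 were at least 2-fold and 2 at least 4-fold higher. Those 3 were the *IAA3* orthologs (1.59, 2.03 and 2.93). The *IAA4* orthologs *BnaA09.IAA.3* (0.79) and *BnaCX.IAA.6* (0.63) stayed below 2-fold. Log2 fold changes of all 5 ran from 0.63 to 2.93, with a median of 1.59. The range of the *IAA19* orthologs, from 2.26 to 4.14, overlapped this range but not that of the *IAA1* and *IAA2* orthologs. The difference between sets of genes was not tested, since copies of a gene are not replicates of a condition.

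Of the sets compared, the median of the *IAA29* orthologs was nearest to that of the *IAA19* orthologs. Other ortholog sets were not part of this comparison, and that of *IAA20* lay nearer. Its genes *BnaA04.IAA.2* (3.70) and *BnaC04.IAA.3* (2.23) lay on either side of the *IAA19* median of 2.79. All 4 *IAA29* orthologs were at least 4-fold higher with IAA, with log2 fold changes from 2.91 to 4.26 and a median of 3.52. *BnaA03.IAA.7* had 7.76 FPKM without IAA and 97.5 FPKM with it (log2 fold change 3.63), and *BnaA01.IAA.1* had 12.8 FPKM and 137 FPKM (3.41). *BnaC07.IAA.5*, at 0.542 FPKM and 12.2 FPKM (4.26), had the lowest level of the set in both libraries. The levels of *IAA29* orthologs with IAA, with a median of 87.3 FPKM, were above the 44.1 FPKM of the highest *IAA19* ortholog in all but *BnaC07.IAA.5*.

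**Figure D5:**
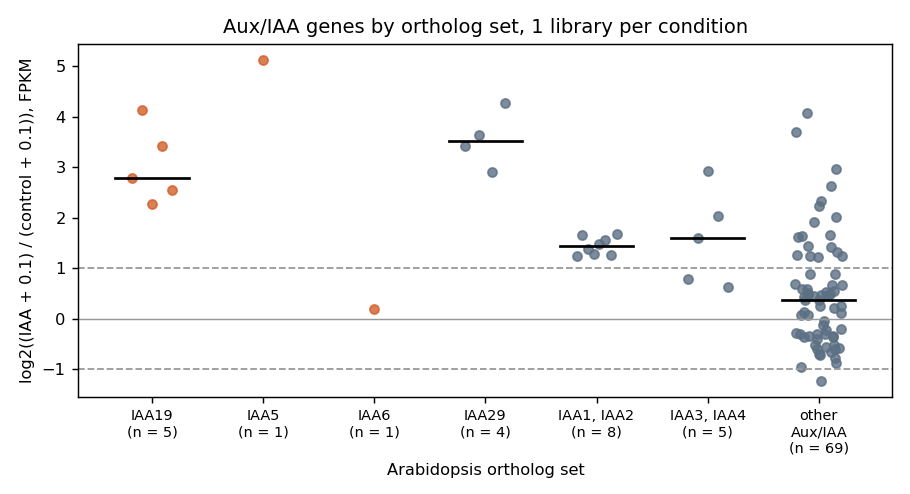
Log2 fold change after 0.1 FPKM was added, for each measured *Aux/IAA* gene by *Arabidopsis* ortholog set; orange points are the members, bars are medians, and dashed lines mark a 2-fold difference. The 5 *IAA19* orthologs lie between 2.26 and 4.14, above all 8 orthologs of *IAA1* and *IAA2*, and the point of the *IAA5* ortholog is set by the added value because its control level is 0.

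By distance from the members' median of 2.79, and among genes that reached 1 FPKM in a library, the 5 other *Aux/IAA* genes with the most similar log2 fold change over these 2 libraries belonged to 5 different ortholog sets. They were *BnaC01.IAA.1* (an *IAA29* ortholog, 2.91), *BnaA10.IAA.2* (*IAA3*, 2.93), *BnaA04R.IAA.1* (*IAA30*, 2.62), *BnaA09.IAA.6* (*IAA17*, 2.33) and *BnaC04.IAA.3* (*IAA20*, 2.23). Their control levels ran from 0.518 FPKM in *BnaC04.IAA.3*, which passed the filter through the IAA library alone, to 17.9 FPKM in *BnaA09.IAA.6*. The next lowest was 1.92 FPKM in *BnaA04R.IAA.1*. A similar fold was thus found at unequal levels. The filter removed *BnaC07.IAA.1*, named after its value had been seen, at 0 FPKM without IAA and 0.676 FPKM with it. Its log2 fold change of 2.96, set in part by the added 0.1 FPKM, was nearer to the median than that of *BnaA04R.IAA.1*.

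Genes with neighbouring gene numbers mostly passed neither the 2-fold increase nor the 2-fold decrease. For each of the 7 members the 5 nearest measured genes on either side by gene number were examined, 70 genes in all. Of these, 5 passed the 2-fold increase, 3 of them from a listed control value of 0 FPKM, and 3 passed the decrease. Over all genes 4.22% passed the increase and 8.68% the decrease. Among the decreases, BnaCnng74090D (0.285 FPKM in the control) and BnaCnng74160D (0.217 FPKM) had a listed value of 0 FPKM with IAA. The neighbours of *BnaA01.IAA.7* all lay below 0.29 FPKM in both libraries, where a difference is hard to judge. The median log2 fold change of the 70 genes was -0.04. Gene numbers give the order only on placed chromosomes: *BnaA06R.IAA.1* starts at base 3799 of unplaced sequence, so the genes numbered before it need not lie beside it, and the same holds for *BnaA09R.IAA.1* and *BnaCX.IAA.8*. Around each of the 4 members on placed chromosomes, 0 or 1 of 10 neighbours passed the increase. Around *BnaA03.IAA.2* the neighbours ranged from -0.37 to 1.24, and the neighbour at 1.24, BnaA03g33910D, had a listed value of 0 FPKM without IAA and 0.136 FPKM with it. BnaC03g39180D, directly after *BnaC03.IAA.2*, stood at 0.862 FPKM and 2.15 FPKM (log2 fold change 1.22), whereas BnaC03g39160D, directly before it, stood at 32.8 FPKM and 29.0 FPKM (-0.17). The largest decrease was -2.80 in BnaC01g36010D, before *BnaC01.IAA.6*, at 8.16 FPKM and 1.09 FPKM, opposite in direction to the member. The largest increase was 2.48 in BnaCnng74340D, after *BnaCX.IAA.8* by number, at 2.07 FPKM and 12.1 FPKM. The next measured gene after *BnaCX.IAA.8*, BnaCnng74270D, stood at 20.5 FPKM in both. These neighbours were singled out after their values had been seen, and their functions are not given in the sources used here.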

How the data were processed

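RNA from 1 control library and 1 IAA library of pooled seedlings was used. Per the labels and the study's methods, TruSeq libraries were read with bcl2fastq 2.18, aligned with HISAT2 2.0.4 against Darmor-*bzh* v4.2 and quantified with Cufflinks 2.2.1, and the authors deposited FPKM per gene. Cufflinks can divide fragments between similar copies, which makes values of homeologs less certain. The read counts of the study's DEGseq test were not used here, so its 2-fold threshold was applied to log2(FPKM + 0.1), a scale that understates the change of low genes. The table had 0 columns of other samples.

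Orthologs, positions and exon numbers came from the study's gene lists, whose gene models also gave the transcript length (coding sequence plus the gene outside its open reading frame). Depth and fragment length were those that made low values whole (16 and 10 genes, up to 10 fragments each, mean deviation of 0.00952 and 0.00672 fragments). Of the *Aux/IAA* genes with more than 10 and up to 100 estimated fragments, 19 of 27 (control) and 20 of 30 (IAA) were whole to within 0.1. On simulated data the depth was recovered for 10 of 10 control libraries of 93 genes, and 1919 of 1999 intervals of a fold held the true value. Exact Poisson, exact binomial (Clopper-Pearson) and conditional exact intervals were computed with scipy 1.17.1 (Python 3.11.15; tables with pandas 2.3.3, arrays with numpy 2.4.6), and figures with matplotlib 3.10.9.

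The members, gene lists and comparisons were chosen with earlier results of these data known. Named genes outside the members were the 5 *Aux/IAA* genes nearest to the members' median that reached 1 FPKM with or without IAA, the highest *Aux/IAA* gene in each library and the *IAA29* orthologs. Alternatives were pseudocounts of 1 and 0.01 FPKM, filters, 3 scalings, fold thresholds of 1.5 and 4, and member lists. Of the members' identifiers 0 of 10 matched the RefSeq table for the Da-Ae assembly, so no protein or promoter is shown, and other auxin pathway genes and seedling markers were not analysed here. Tissue values of the study were not used here.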

Additional observations from a re-analysis of the deposited data

How the results depend on the processing

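No paired analysis was possible because the design holds a single library of either treatment and no result comes from a test. For the same reason no library could be left out. The number of members at least 2-fold higher was 6 under every pseudocount, scaling and fold threshold, 4 of 4 after genes below 0.5 FPKM in a library were removed, and 5 of 5 without *BnaA06R.IAA.1* and *BnaA09R.IAA.1*, the members on unplaced A06 and A09 sequence. These were also the 2 members with at most 1 control fragment, an alternative chosen after seeing the data. The members' median lay between 2.13 with a pseudocount of 1 FPKM and 3.30 with 0.01 FPKM. Of 35 recomputed member values, 3 left their counting interval and 0 changed sign. These 3, all at a pseudocount of 1 FPKM, were 1.25 for *BnaA01.IAA.7*, 3.61 for *BnaA03.IAA.2* and 2.13 for *BnaA09R.IAA.1*. At that pseudocount the log2 fold change of *BnaA01.IAA.7* minus that of *BnaC01.IAA.6* changed sign, from 0.53 to -0.72. The difference of *BnaA03.IAA.2* minus *BnaC03.IAA.2* went from 0.71 to 0.44. From estimated fragments instead of FPKM, which leaves gene length in the share, *BnaA03.IAA.2* made up 37.9% of its pair with IAA. Among genes of at least 1 FPKM in both libraries the median log2 ratio was -0.09, which centring removes.

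Of the other *Aux/IAA* genes, 13 were higher at a fold threshold of 4. The number lower was 0 at that threshold or with a pseudocount of 1 FPKM, 4 with 0.01 FPKM and 9 at a threshold of 1.5. Over all genes, against 2668 higher and 5487 lower, a pseudocount of 1 FPKM gave 666 and 873 and one of 0.01 FPKM 4311 and 9099, the genes that reached 1 FPKM in either library held 1103 and 2137, and those at or above 0.5 FPKM in both held 752 and 1408. The numbers were 5635 and 12204 at a threshold of 1.5, and 724 and 1160 at 4. Of the called genes 32.7% were higher, and 43.3% with a pseudocount of 1 FPKM. The cause of these changes was not tested. Depth limits *BnaA06R.IAA.1* and the size of the fold of *BnaA01.IAA.7*.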
